A study of Drosophila melanogaster with 7 samples.

Results

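The serpins and clip-domain proteases of the larval hemolymph cascades were followed in fat body RNA, together with the GNBP recognition proteins that start these cascades. Members were chosen by name: every gene of the deposited tables called Spn followed by a digit, and nec, SPE, psh, grass, spirit, modSP, MP1, Sp7, ea, snk, gd, ndl, sphinx1, sphinx2, GNBP1, GNBP2 and GNBP3. This gave 29 of 14804 genes, namely 13 serpins including nec, 13 proteases and protease homologs, and 3 GNBPs. Wandering Drosophila melanogaster larvae of the cross Bx-GAL4 to UAS-Ras V12 (RasV12, 3 libraries) were compared with larvae of the cross Bx Gal4 to W1118 (control, 3 libraries), so the driver chromosome was common to both groups. The driver directs the dominant-active Ras to wing discs and salivary glands, and the fat body, whose RNA was measured, was not the tissue meant to carry it. Each library pooled the fat bodies of 40 larvae, dissected without the gonads. The question the comparison addresses is how the fat body transcriptome differs in larvae that carry aberrant tissue elsewhere.

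In insects the hemolymph carries proteases as inactive precursors, which cut and activate each other in sequence. Recognition proteins start the sequence when they bind microbial surface sugars. One branch ends in the cleavage of Spätzle, the ligand of the Toll receptor, and another in the activation of prophenoloxidase and melanin formation. Serpins are suicide substrates that trap an active protease, and so limit both branches. The fat body secretes many of these proteins into the hemolymph. Because the cascade runs by cleavage, RNA levels measure the supply of its components and not its activity.

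The values are FPKM, fragments normalised for gene length and sequencing depth, which the authors estimated with Cufflinks. They were divided here by the 75th percentile of each library (scaled FPKM) and compared between genes as levels per length. The confidence bounds beside each value imply 4649422, 7137448 and 7305940 fragments in RasV12 replicates 1, 2 and 3, against 6271265, 7328089 and 2910838 in control replicates 1, 2 and 3, so control replicate 3 was the shallowest. The libraries carried the fat body label: the 6 markers of this tissue (larval serum proteins and fat body proteins) summed to between 64162 and 112153 scaled FPKM in RasV12 libraries, against 109779 to 167485 in control libraries. Of the 6, 1 (Lsp1beta, log2 fold change -0.79) had an unadjusted p under 0.05 (limma), lower in RasV12 (4.11% of all genes tested), and 0 an adjusted p under 0.05. Lsp1beta and Lsp1gamma (-0.86) lay below every control in each RasV12 library, as 7.08% of all genes tested did. For the other 4 the groups overlapped. The 8 hemocyte markers summed to between 45.9 and 145 scaled FPKM in RasV12 libraries, against 14.4 to 83.5 in controls. Of the 7 hemocyte markers tested, 5 had an unadjusted p under 0.05 (limma), all higher in RasV12, where 5.29% of all genes tested were. An adjusted p under 0.05 was reached by 0 of them. The plasmatocyte genes Hml and He were listed at 0 in every control library, but also in RasV12 replicate 1 (Hml) and RasV12 replicate 3 (He), and the prophenoloxidase genes proPO-A1 and CG8193 had log2 fold changes of -0.57 and -0.72. The 12 testis genes summed to between 13.2 and 237 scaled FPKM in RasV12 libraries, against 0 to 8.56 in controls. The part of hemocyte or testis RNA in the values below was not tested. In bulk RNA, fewer cells of a type and less RNA per cell cannot be told apart.

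Of the 29 members, 20 had a mean FPKM of at least 1 and entered the test, and 13 of the 29 were in the upper 10% of all listed genes by their control mean. None of the 20 had an adjusted p under 0.05 (limma, Benjamini-Hochberg adjustment over 7575 genes), where 0.106% of all genes tested did. At an unadjusted p under 0.05, 1 member (Spn43Ad) was higher in RasV12, where 5.29% of all genes tested were, and 0 were lower, where 4.11% of all genes were. The groups did not overlap for 1 member above control (7.67% of all genes tested) and for 1 below control (7.08% of all genes tested). These shares are near or under the background, and 10 members had a log2 fold change above 0 and 10 below. The median change of the 20 members was -0.00 on the log2 scale, against 0.00 over all genes tested, and the median size of a change regardless of sign was 0.157, against 0.197 over all genes. The 95% interval of the change lay within 2-fold in both directions for 18 of the 20 members (90%), which 70.5% of all genes tested also had. The labels do not say whether the pools came from separate cultures, so these p-values measure only the spread between these libraries, and an exact permutation test of 3 against 3 libraries cannot go below 0.1.

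**Figure D1:**
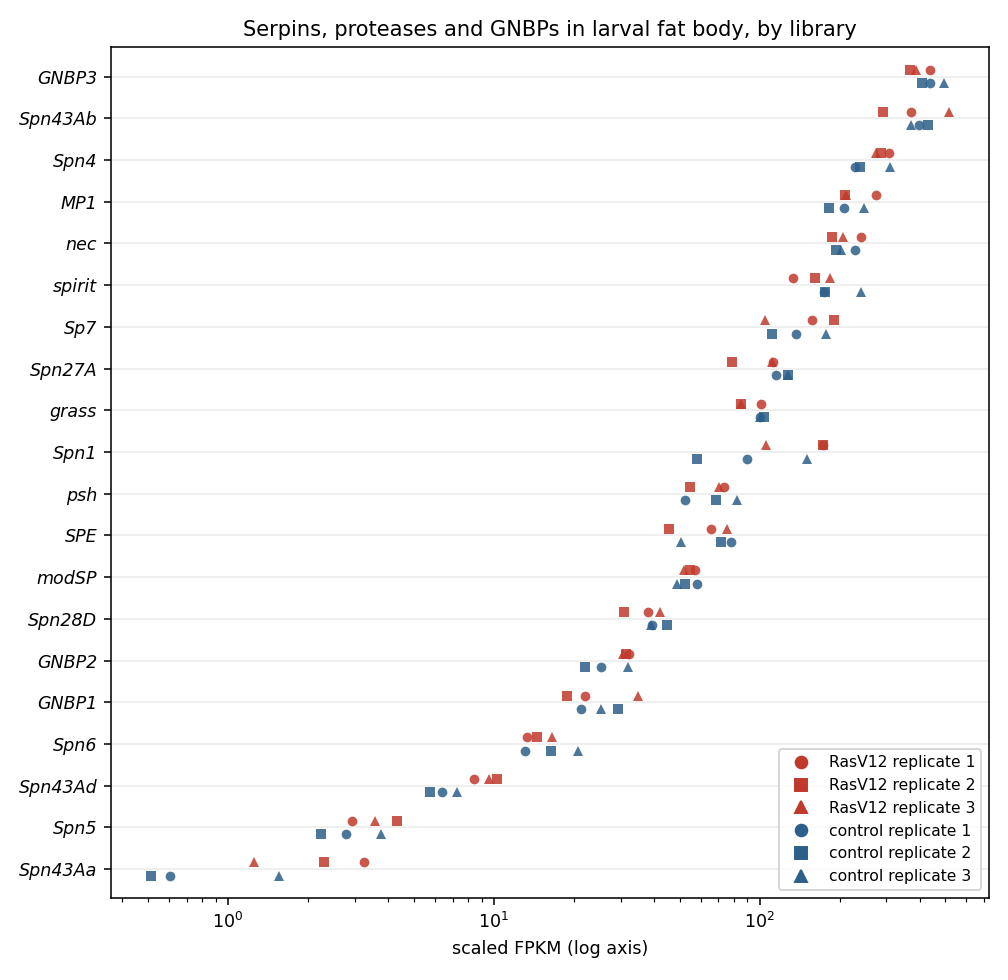
Scaled FPKM on a log axis (horizontal) of the 20 members tested, 1 row per gene ordered by level, with RasV12 libraries in red above control libraries in blue and a marker shape per replicate. Levels run over 3 orders of size, with GNBP3 at 367 to 439.5 in RasV12 and 409 to 495 in control, and the groups separate only for Spn43Ad (8.45 to 10.3 in RasV12, 5.76 to 7.29 in control) and Spn27A (78.7 to 112 in RasV12, 115 to 127 in control).

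The GNBPs form the recognition step. GNBP3, which binds fungal glucans, was the most abundant member of all, with 439.5, 367 and 386 scaled FPKM in RasV12 libraries, against 439, 409 and 495 in controls. The groups overlapped, and the log2 fold change was -0.17 ± 0.165 (SE, 95% interval -0.56 to 0.22, limma adjusted p = 0.739). GNBP1, the partner of PGRP-SA in the sensing of Gram-positive bacteria, was an order of size lower, with 22.0, 18.9 and 34.8 scaled FPKM in RasV12 libraries, against 21.3, 29.3 and 25.2 in controls. Its highest and its lowest library were both RasV12 (log2 fold change -0.04, 95% interval -0.63 to 0.55, limma adjusted p = 0.969). GNBP2, a relative of GNBP1, had 32.2, 31.5 and 30.5 scaled FPKM in RasV12 libraries, against 25.3, 22.1 and 32.0 in controls. The RasV12 values lay close together at the upper end of the control range (log2 fold change 0.25, 95% interval -0.13 to 0.64, limma adjusted p = 0.635). GNBP2 and GNBP1 are neighbours on chromosome arm 3L (BDGP5, 18666572 to 18668526 and 18668913 to 18670983), with 386 bases between them.

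The proteases of the Toll branch follow. modSP, the modular protease that acts first, had 57.0, 54.7 and 51.9 scaled FPKM in RasV12 libraries, against 58.3, 52.2 and 49.0 in controls. The 6 libraries were alike, and the interval of the log2 fold change was the narrowest among the Toll proteases (0.04, 95% interval -0.28 to 0.36, limma adjusted p = 0.938). grass, the clip-domain protease downstream of modSP, had 101, 85.4 and 85.3 scaled FPKM in RasV12 libraries, against 100.1, 104 and 100.3 in controls. Both lower values belonged to RasV12 replicates 2 and 3, while RasV12 replicate 1 lay among the controls (log2 fold change -0.17, 95% interval -0.50 to 0.16, limma adjusted p = 0.701). psh (persephone), which is cut by proteases of invading microbes and so senses danger rather than a microbial pattern, had 73.4, 54.6 and 70.5 scaled FPKM in RasV12 libraries, against 52.5, 68.4 and 82.2 in controls. The control libraries held both extremes for psh (log2 fold change -0.02, 95% interval -0.53 to 0.49, limma adjusted p = 0.980).

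spirit, a clip-domain protease placed in the Toll branch by loss of function, had 134, 162 and 185 scaled FPKM in RasV12 libraries, against 174.5, 176 and 241 in controls. Its RasV12 replicate 3 lay above control replicates 1 and 2, so the groups overlapped (log2 fold change -0.29, 95% interval -0.78 to 0.20, limma adjusted p = 0.663). SPE, the Spätzle-processing enzyme at the end of the branch, had 65.8, 45.6 and 75.2 scaled FPKM in RasV12 libraries, against 78.1, 71.4 and 50.4 in controls. Both groups spread over the same range (log2 fold change -0.11, 95% interval -0.71 to 0.50, limma adjusted p = 0.902). Of the 5 Toll proteases tested, 0 had an unadjusted p under 0.05, and all 5 intervals lay within 2-fold. The protease homologs sphinx1 and sphinx2, whose genes lie 293 bases apart on 3L, were listed at 0 in all 6 libraries.

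The 2 proteases of the melanization branch were among the abundant members. MP1, a clip-domain protease required for melanization, had 273, 209 and 212 scaled FPKM in RasV12 libraries, against 208, 183 and 247 in controls. The groups overlapped (log2 fold change 0.12, 95% interval -0.34 to 0.58, limma adjusted p = 0.847). The MP1 gene shares 196 bases of its span with vps24, whose FPKM was between 15.6 and 30.7 over the libraries. Sp7, which activates prophenoloxidase, had 157, 190.0 and 105 scaled FPKM in RasV12 libraries, against 137, 112 and 177 in controls. RasV12 held its highest and its lowest library (log2 fold change 0.07, 95% interval -0.59 to 0.73, limma adjusted p = 0.949).

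The proteases of dorsoventral patterning are made by the mother and act around the embryo, where they lead to the cleavage of Spätzle. ndl was listed at 0 in all 6 libraries. gd rested on 1, 0 and 1 fragments in RasV12 libraries and on 0 in every control, and snk on 1 fragment in RasV12 replicate 2 alone. ea (easter), the last of them, rested on 3, 7 and 2 fragments in RasV12 libraries, against 1 in each control library. Per fragment sequenced this is a ratio of 3.46, with an exact 95% interval of 0.933 to 19.1 that covers counting error only, so a difference in ea was not detectable at this depth. Values that rest on at most 3 fragments were taken as the floor of detection, and 8 of the 29 members never exceeded it.

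**Figure D2:**
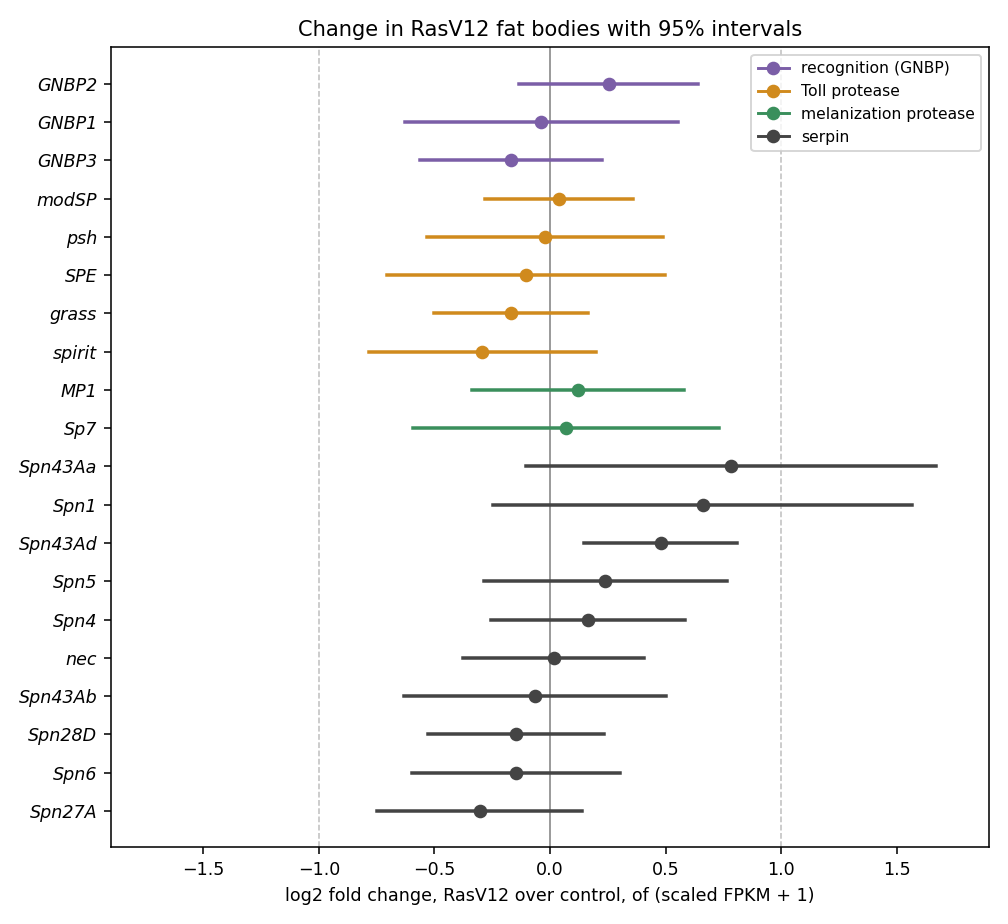
Log2 fold change of RasV12 over control on log2(scaled FPKM + 1) (horizontal) with 95% intervals from limma for the 20 members tested, 1 row per gene, coloured by role, n = 3 libraries a group. Only the interval of Spn43Ad (0.15 to 0.81) leaves out 0, and only those of Spn1 and Spn43Aa reach past the dashed lines at 2-fold.

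Among the serpins, nec (necrotic) is the inhibitor of the Toll branch whose loss activates the pathway through psh. nec had 240, 188 and 206 scaled FPKM in RasV12 libraries, against 228, 194 and 202 in controls. The groups overlapped fully (log2 fold change 0.02 ± 0.164 (SE), 95% interval -0.37 to 0.41, limma adjusted p = 0.980). The ratio of nec to psh was 3.21 ± 0.265 in RasV12 libraries and 3.22 ± 0.992 in controls (SD, n = 3 each), so the controls spread more widely than the groups differed. Spn27A, which restrains prophenoloxidase activation in the hemolymph and easter in the embryo, was the member whose scaled FPKM lay lower in every RasV12 library. It had 112, 78.7 and 111 scaled FPKM in RasV12 libraries, against 115, 127 and 127 in controls. Replicate 1 and replicate 3 of RasV12 lay just under the lowest control, and the difference did not pass the test (log2 fold change -0.30 ± 0.185 (SE), 95% interval -0.75 to 0.14, unadjusted p = 0.146, limma adjusted p = 0.625). The separation depended on the scaling. Before it, the FPKM of Spn27A were 114.9, 94.5 and 112.0 in RasV12 libraries, against 112.1, 125.2 and 103.1 in controls, so the groups overlapped. Its log2 fold change without scaling was -0.08. Spn27A lies within the span of cup, whose FPKM was between 1.75 and 3.72. The ratio of Spn27A to Sp7, the inhibitor over a protease of the same branch, was 0.729 ± 0.322 in RasV12 libraries and 0.898 ± 0.217 in controls (SD, n = 3 each).

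Spn1 (now Spn42Dd), an inhibitor of the fungal arm of the Toll branch, varied most among the abundant members. It had 172.5, 173 and 105 scaled FPKM in RasV12 libraries, against 89.5, 58.2 and 151 in controls. RasV12 replicates 1 and 2 stood above every control, while RasV12 replicate 3 lay below control replicate 3 (log2 fold change 0.66 ± 0.379 (SE), 95% interval -0.25 to 1.57, limma adjusted p = 0.610). The value of Spn1 turned on single control libraries. Its log2 fold change was 1.01 without control replicate 3 (unadjusted p = 0.0227, limma adjusted p = 0.462) and 0.33 without control replicate 2 (unadjusted p = 0.376). The adjusted p was between 0.312 and 0.930 over 17 alternative settings. The gene shares 405 bases of its span with CG9455, another serpin gene, which had 59.6, 52.2 and 50.7 scaled FPKM in RasV12 libraries, against 50.4, 58.8 and 55.3 in controls. Fragments of the shared stretch could fall to either gene, and how the reads there were assigned is not given in the sources used here.

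Spn4 (now Spn42Da), which inhibits the proprotein convertase furin, lies 4079 bases from Spn1 on 2R. It had 306, 285 and 274 scaled FPKM in RasV12 libraries, against 229, 239 and 310 in controls. The highest library was a control and the remaining controls were the lowest (log2 fold change 0.16, 95% interval -0.25 to 0.58, limma adjusted p = 0.762). Spn43Ab was the most abundant serpin, with 371, 292 and 517 scaled FPKM in RasV12 libraries, against 399, 432 and 371.5 in controls. Both extremes were RasV12 libraries (log2 fold change -0.07, 95% interval -0.63 to 0.50, limma adjusted p = 0.943).

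Spn43Ad was the single member with an unadjusted p under 0.05. It had 8.45, 10.3 and 9.57 scaled FPKM in RasV12 libraries, against 6.41, 5.76 and 7.29 in controls, resting on 52, 115 and 90 fragments in RasV12 libraries and 50, 53 and 22 in controls. Every RasV12 library lay above every control (log2 fold change 0.48 ± 0.138 (SE), 95% interval 0.15 to 0.81, unadjusted p = 0.0114). After adjustment over all genes it did not pass (limma adjusted p = 0.421), and 7.67% of all genes tested lay fully above control in the same way. Spn43Aa had the largest log2 fold change of the members, 0.78 ± 0.371 (SE, 95% interval -0.10 to 1.67, limma adjusted p = 0.567), at a level near the filter. With 5 added to the scaled FPKM in place of 1 its log2 fold change was 0.30, and with 0.1 added it was 1.31. It rested on 17, 22 and 10 fragments in RasV12 libraries, against 4, 4 and 4 in controls. Its scaled FPKM were 3.25, 2.31 and 1.25 in RasV12 libraries, against 0.604, 0.512 and 1.56 in controls, where the shallow control replicate 3 lay above RasV12 replicate 3. Per fragment sequenced, the ratio was 3.53 with an exact 95% interval of 1.85 to 7.29, which covers counting error only and not the spread between libraries.

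These serpins stand in a row on 2R (BDGP5): Spn43Aa at 3035203 to 3036757, Spn43Ab at 3039170 to 3041188, Spn43Ad at 3041242 to 3042927 and nec at 3043981 to 3045733. The gaps between neighbours are 2412, 53 and 1053 bases. Their levels were far apart in spite of this. The RasV12 means were 2.27 ± 0.998 scaled FPKM for Spn43Aa, 393 ± 114 for Spn43Ab, 9.42 ± 0.912 for Spn43Ad and 211 ± 26.4 for nec (SD, n = 3). The control means were 0.892 ± 0.580 scaled FPKM for Spn43Aa, 401 ± 30.3 for Spn43Ab, 6.49 ± 0.768 for Spn43Ad and 208 ± 17.5 for nec (SD, n = 3). The low genes Spn43Aa and Spn43Ad had log2 fold changes of 0.78 and 0.48, and the high genes Spn43Ab and nec had -0.07 and 0.02. Spn43Ab, Spn43Ad and nec lie within the span of pk, whose FPKM was under 1 in every library.

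The remaining serpins did not pass the test. Spn28D (now Spn28Dc), which limits melanization after wounding, had between 30.9 and 42.2 scaled FPKM in RasV12 libraries and between 39.0 and 44.7 in controls. Spn6 (now Spn55B) had between 13.4 and 16.6 in RasV12 libraries and between 13.1 and 20.8 in controls. Spn5 (now Spn88Ea), an inhibitor of the Toll branch, had between 2.93 and 4.34 in RasV12 libraries and between 2.24 and 3.75 in controls. Their log2 fold changes were -0.15, -0.15 and 0.24, and the groups overlapped for each. Spn2 (now Spn28F) and Spn3 (now Spn38F), known as seminal fluid serpins of the adult male, rested on at most 2 fragments in any library. Spn7 (now Spn28B) was listed at 0 in all 6 libraries.

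Summed by role, the 13 serpins reached 1267, 1080 and 1287 scaled FPKM in RasV12 libraries, against 1123, 1121 and 1235 in controls. The 13 proteases and homologs reached 862, 802 and 785 in RasV12 libraries, against 809, 766 and 947 in controls. The 3 GNBPs reached 494, 417 and 452 in RasV12 libraries, against 486, 460.0 and 552 in controls. In each of the 3 sums the groups overlapped. The ratio of summed serpin to summed protease levels was 1.47, 1.35 and 1.64 in RasV12 libraries, against 1.39, 1.46 and 1.30 in controls, or 1.49 ± 0.147 and 1.38 ± 0.0793 (SD, n = 3 each). No library stood apart in all members: the highest of the 6 values fell in RasV12 replicates 1, 2 and 3 for 4, 4 and 2 of the 20 members tested, and in control replicates 1, 2 and 3 for 2, 2 and 6. The lowest fell in RasV12 replicates 1, 2 and 3 for 1, 7 and 2 members, and in control replicates 1, 2 and 3 for 3, 6 and 1.

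**Figure D3:**
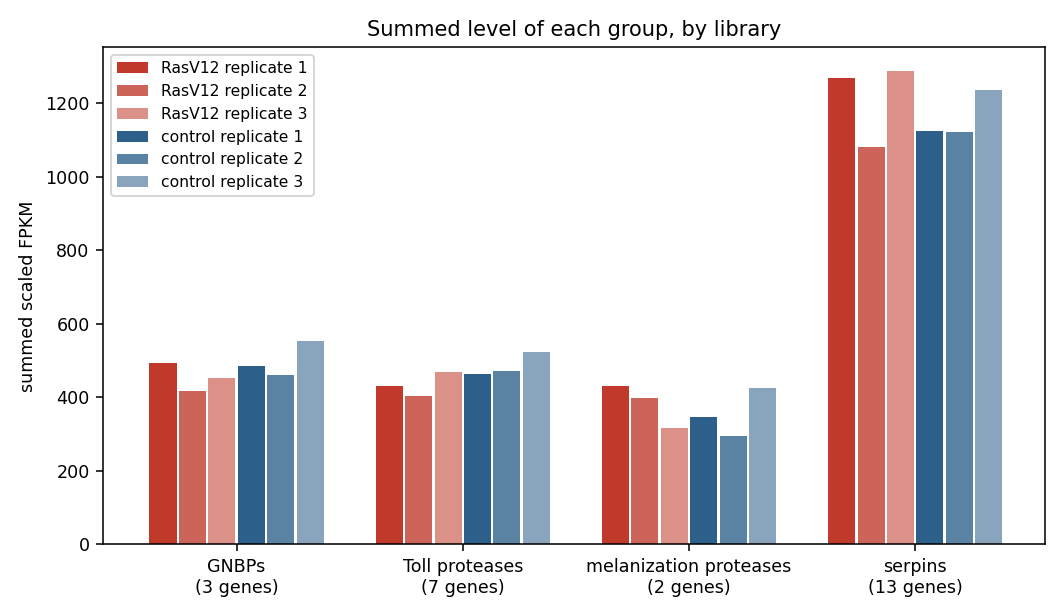
Summed scaled FPKM (vertical, from 0) of the members of each role, 1 bar per library, RasV12 replicates in red left of control replicates in blue. The serpins sum to 1080 to 1287 in RasV12 and 1121 to 1235 in control, and the groups overlap in every role.

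The other genes of these cascades were read from lists. Of 16 serpin genes that carry a Spn name only in a newer annotation, 15 were matched and 4 tested, and 0 had an unadjusted or adjusted p under 0.05. CG6687 (now Spn88Eb) had 123, 92.3 and 163 scaled FPKM in RasV12 libraries, against 102, 132 and 129 in controls. CG6680 (now Spn77Ba), which limits melanization in the trachea, had 86.1, 58.3 and 65.8 in RasV12 libraries, against 61.3, 66.1 and 67.1 in controls. The groups overlapped for both, and the median log2 fold change of the 4 serpins tested was 0.01, against 0.00 over all genes tested.

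Of 16 other genes of the clip-domain protease family, 6 were tested. Whether each encodes an active protease or a protease homolog was not examined. Of these 6, 2 had an unadjusted p under 0.05 (limma), both higher in RasV12, where 5.29% of all genes tested were. CG8586 had 130.5, 191 and 163 scaled FPKM in RasV12 libraries, against 41.9, 64.0 and 101 in controls. Every RasV12 library lay above every control (log2 fold change 1.29 ± 0.330 (SE), unadjusted p = 0.00661), and the change did not pass the adjustment (limma adjusted p = 0.370). CG8738 had 23.0, 34.4 and 17.7 scaled FPKM in RasV12 libraries, against 13.7, 13.1 and 17.9 in controls, so the groups overlapped by 1 library (log2 fold change 0.67, limma adjusted p = 0.531). The remaining 4 had log2 fold changes between 0.06 and 0.22, and the median of the 6 was 0.21. In the melanization list, 5 of 8 genes were tested, and 0 had an unadjusted or adjusted p under 0.05. The gene proPO-A1 (now PPO1), a prophenoloxidase of crystal cells, had 1.01, 3.25 and 41.8 scaled FPKM in RasV12 libraries, against 3.05, 28.8 and 8.86 in controls, a spread between replicates far wider than that of MP1 or Sp7.

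Of the 10 genes of the Toll pathway from ligand to transcription factors, all were tested. Dif, a transcription factor of the pathway, was the 1 gene with an unadjusted p under 0.05 (limma). It was higher in RasV12, where 5.29% of all genes tested were. Dif had 31.8, 27.1 and 23.5 scaled FPKM in RasV12 libraries, against 22.1, 21.3 and 16.9 in controls (log2 fold change 0.43, limma adjusted p = 0.531). spz, which encodes the substrate of SPE, had 18.5, 15.8 and 31.9 scaled FPKM in RasV12 libraries, against 21.8, 34.2 and 22.6 in controls, and the groups overlapped. The median log2 fold change of the 10 genes was 0.07. Of 9 target peptides of the pathway, 7 had an unadjusted p under 0.05, all higher in RasV12 (5.29% of all genes tested), and 0 had an adjusted p under 0.05 (limma). Every RasV12 library lay above every control for 3 of the 9, where 7.67% of all genes tested did. Of these 3, IM1 rested on 1 fragment in RasV12 replicate 3 and on 0 in every control, so there it lay at the floor. For the other 6 the groups overlapped, with RasV12 replicate 3 within the range of the controls. Drs (drosomycin), an antifungal peptide, had 2419, 2098 and 479 scaled FPKM in RasV12 libraries, against 152, 259 and 662 in controls. By qPCR the paper reported Drs as induced at times during the third instar. It also counted IM peptides among the genes called by its own Cuffdiff comparison. The paper places Drs under the imd immune pathway as well as Toll, so its level is not a measure of Toll alone. Whether the other listed peptides, Mtk among them, answer to Toll alone was not tested either. IM4, IM14 and IM23 were listed at 0 in RasV12 replicate 3. Mtk (metchnikowin), another antifungal peptide, was highest in RasV12 replicate 3 and had 418, 132 and 1260.1 scaled FPKM in RasV12 libraries, against 50.2, 39.5 and 104 in controls. The RasV12 values of Mtk were all above the controls, and its log2 fold change of 2.78 ± 0.809 (SE, limma adjusted p = 0.421) lay beyond that of every member tested. The difference between the changes of the members and of their target peptides was not tested.

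**Figure D4:**
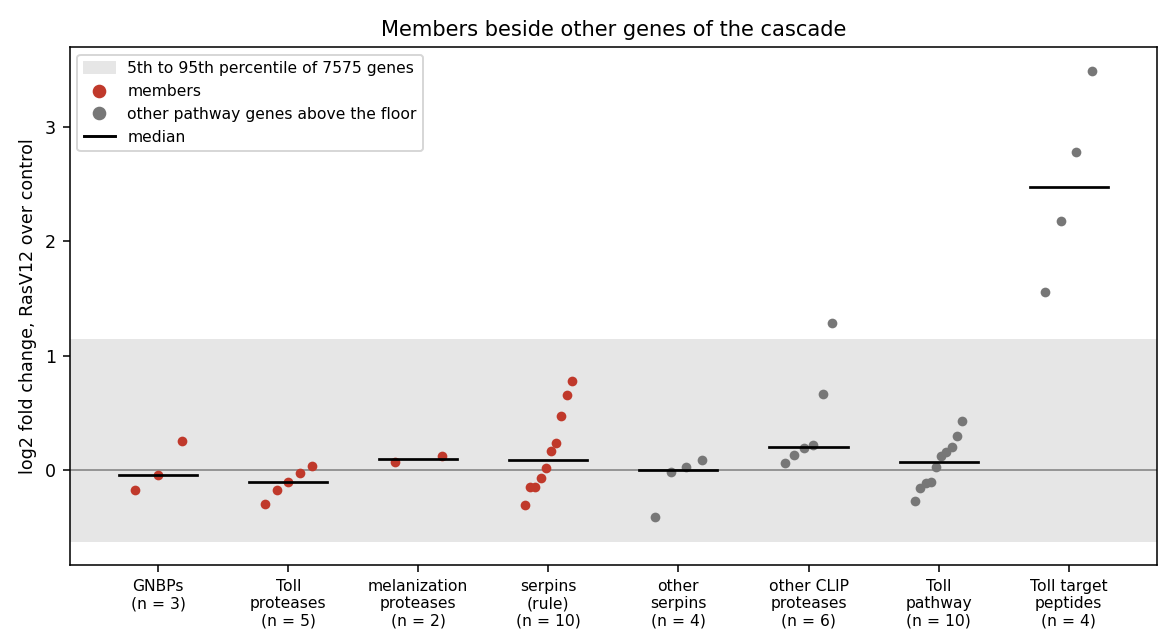
Log2 fold change of RasV12 over control (vertical) for members by role (red) and other genes of the cascades (grey), 1 point per gene tested whose control libraries all exceeded 3 fragments, with the median as a line and the band from the 5th to the 95th percentile of 7575 genes (-0.62 to 1.13). All 20 members lie inside the band, while CG8586 (1.29) and the 4 target peptides shown (1.56 to 3.49) lie above it.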

How the data were processed

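RNA of larval fat bodies was sequenced as paired reads of 100 bases. Per the labels and methods, the authors mapped reads with TopHat 1.0.14, removed duplicates and used Cufflinks 0.0.5 on the Ensembl annotation of BDGP5. They deposited a table for every library that gives each gene's FPKM and its lower and upper bound. Control replicate 3 was taken from run 3A. The second run (3B, 855836 fragments) and a table labelled as both runs merged, which is run 3A multiplied by 0.770 for 94.3% of 6869 genes with FPKM over 1, entered only as alternatives. The authors' Cuffdiff comparison was not used. Fragments behind each value were worked out from its confidence bounds, and of 91 member values above 0 and up to 1000 fragments, 66 came out whole within 0.05, so the others are rounded.

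FPKM were scaled to the 75th percentile, taken per library among genes detected in any library (divisors 1.02, 1.20 and 1.01 for RasV12 and 0.977, 0.983 and 0.809 for control replicates 1, 2 and 3). The genes whose FPKM averaged 1 or more were fitted together in limma (lmFit and eBayes with trend, two-sided) after taking log2(scaled FPKM + 1), a scale that understates the change of low genes, and p-values were adjusted by Benjamini-Hochberg. Intervals are 95%, and those on fragments are exact (Clopper-Pearson) and cover counting error only. Ratios on fragments use the total fragments of each group and leave out the 75th percentile scaling. The script was tested on simulated data.

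The members and lists were chosen with earlier results of these data known. Per-library values were given for GNBPs, proteases and nec above the filter, and for serpins with an unadjusted p under 0.05, no overlap, or the 5 highest means. Spn43Aa, CG8586, CG8738, proPO-A1, Mtk and the other list genes named were picked after their values were seen. Coordinates are those of the deposited tables (BDGP5), with 1 added to the start, and newer names come from a later annotation by FlyBase ID. The other marker lists, summed in scaled FPKM, were male accessory gland (2.15 to 7.58 in RasV12, 2.43 to 7.52 in control), ovary and yolk (4.93 to 23.9 in RasV12, 11.0 to 18.6 in control), salivary gland glue (7.36 to 11.7 in RasV12, 7.40 to 23.7 in control), midgut (2.61 to 3.56 in RasV12, 3.29 to 358 in control) and muscle (6.17 to 30.6 in RasV12, 26.1 to 72.4 in control). Of the dorsoventral genes pip and wbl, 0 were tested. Alternatives were pseudocounts of 0.1 and 5, a mean filter of 5 or none, median-of-ratios scaling or none, the merged table or run 3B, robust eBayes, array weights, a replicate block, and leaving out each replicate. The software was limma 3.58.1 in R 4.3.3, and numpy 2.4.6, pandas 2.3.3, matplotlib 3.10.9 and scipy 1.17.1 in Python 3.11.15.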

Additional observations from a re-analysis of the deposited data

Results flagged for a closer look

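Spn7 (now Spn28B) was listed at 0 in all 6 libraries compared, and also in run 3A and run 3B of control replicate 3, yet the table labelled as both runs merged gave it a value that rests on 4 fragments. That table entered the comparisons only as an alternative.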

How the results depend on the processing

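In all 17 alternatives, 0 members had an adjusted p under 0.05. The number with an unadjusted p under 0.05 was 1, and 5 without scaling, 3 with run 3B, 3 with array weights, and between 1 and 4 when 1 library was left out (4 without control replicate 3, namely Spn43Ad, Spn43Aa, Spn1 and GNBP2, and 2 without RasV12 replicate 3). Without scaling the median log2 fold change was 0.22 for the members and 0.20 for all genes, and 794 genes were higher and 99 lower at an unadjusted p under 0.05, against 401 and 311 with scaling. Spn43Ad kept an unadjusted p under 0.05 in each of the 17, with a log2 fold change between 0.33 and 0.68 and an adjusted p between 0.219 and 0.899. Of the 20 members, 8 had the same sign in every setting. Spn43Aa had a log2 fold change of 1.31 with a pseudocount of 0.1 and 0.30 with one of 5.

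Over all genes, 8 had an adjusted p under 0.05, against 61 without RasV12 replicate 3, 16 with array weights, 13 without control replicate 3, 12 with a pseudocount of 0.1, 5 with a pseudocount of 5, with run 3B or without RasV12 replicate 2, and 3 with the replicate block. Replicate numbers did not pair the libraries (correlations of deviations 0.0879, -0.168 and -0.150). With the replicate block 0 members had an adjusted and 1 an unadjusted p under 0.05. The causes were not tested. The median log2 ratio of run 3B, the shallower, to run 3A was -0.26 for the 20 members and -0.11 for all genes tested. For ea, on 12 fragments in RasV12 and 3 in control libraries, the counting interval of the ratio included 1.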
